A study of Mus musculus with 18 samples.

Results

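The complement regulators described here are 9 genes, taken by symbol from the deposited gene tables of 22558 genes: Cd46, Cd55, Cr1l, Cd59a and Cd59b, whose products sit on cell membranes, and Cfi, Serping1, Vtn and Clu, whose products are secreted. All 9 symbols were found in both tissues. The study sequenced total RNA of retina and of RPE/choroid (the retinal pigment epithelium with the vessel layer behind it) from mice aged 30 days, in 18 libraries. The mice were wild type, Abca4-/- (called knockout below) or homozygous for an Abca4 allele that carries L541P and A1038V (called knock-in), with 3 libraries per genotype and tissue. All 3 genotypes were on a mixed 129SV and C57BL/6 background, and no group received a treatment. The labels name neither single mice nor pools as the source of a library, so the p-values below measure the spread between libraries, which may be technical. Libraries are named by genotype and by the number, 0 to 2, that the deposited tables give them.

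Complement is a cascade of plasma proteins that tags surfaces with fragments of C3 and C4 and can end in a pore, the membrane attack complex. Host cells hold it in check at several steps. Serping1 encodes C1 inhibitor, which inactivates the proteases that start the classical and lectin pathways. Cd55 (decay-accelerating factor) breaks up the convertases, and Cfi (factor I) is the protease that cleaves C3b and C4b with the help of cofactors such as Cd46 and, in rodents, Cr1l (also known as Crry). Cd59a and its paralog Cd59b stop assembly of the pore at the membrane, while vitronectin (Vtn) and clusterin (Clu) bind the nascent pore complex in fluid. Abca4 encodes a transporter of photoreceptor outer segments that clears retinoid by-products of the visual cycle. Loss of ABCA4 function causes Stargardt disease in people, and the RPE, which ingests outer segments, is exposed to complement from the choroid.

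Libraries held 11553291 to 23579152 assigned fragments in retina and 14621635 to 30048059 in RPE/choroid. Levels are given in FPKM, the fragments of a gene scaled by transcript length and library depth. Abca4 itself was at 254 ± 27.4 FPKM in wild-type retina, 78.7 ± 4.19 in knockout and 204 ± 25.8 in knock-in retina (SD, n = 3 each). The sexes, read from Xist and Ddx3y, were uneven: 2, 1 and 0 male libraries among wild-type, knockout and knock-in retinas, and 3, 3 and 2 in RPE/choroid. A pair of features set libraries apart. Wild-type RPE/choroid library 2 had a summed level of 12 rod photoreceptor genes of 2829 FPKM against 138 to 551 in the other RPE/choroid libraries. The library numbered 2 in the tables also had another conversion from fragments to FPKM in all 6 groups: for Cd55 the ratio of CPM (fragments scaled to library size only) to FPKM was 1.76 to 2.44, against 2.50 to 3.40 in libraries 0 and 1. For Clu and Vtn the library numbered 2 had the highest such ratio in all 6 groups, and for Cd55, Cr1l, Cd59a, Cd46 and Cfi the lowest. The tests below use the fragments, not FPKM.

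Of the 9 genes, 6 have an entry in the RefSeq promoter table at hand (build GRCm38.p6). The 250 bases before the annotated start are shown for the 3 members whose levels set the results apart: Vtn, the member that was higher in retina than in RPE/choroid, Cd55, a member that was far lower in retina, and Cd59a, which fell in knockout retina. Capitals mark matches, on either strand, to 6 short motifs searched for: the CRX core TAATC, named for a photoreceptor transcription factor, the TATA box TATAAA, the sequence CCAAT, the GC box GGGCGG, the E-box CACGTG and the promoter element CCACCC. The Vtn window is chr11:78498870-78499119 on the plus strand, the Cd55 window is chr1:130462745-130462994 on the minus strand, and the Cd59a window is chr2:104095551-104095800 on the plus strand.
Vtn: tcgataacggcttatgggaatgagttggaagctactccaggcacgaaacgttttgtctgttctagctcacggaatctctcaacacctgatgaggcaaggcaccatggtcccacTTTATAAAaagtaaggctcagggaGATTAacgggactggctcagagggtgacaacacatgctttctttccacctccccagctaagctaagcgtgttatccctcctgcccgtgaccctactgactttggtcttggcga
Cd55: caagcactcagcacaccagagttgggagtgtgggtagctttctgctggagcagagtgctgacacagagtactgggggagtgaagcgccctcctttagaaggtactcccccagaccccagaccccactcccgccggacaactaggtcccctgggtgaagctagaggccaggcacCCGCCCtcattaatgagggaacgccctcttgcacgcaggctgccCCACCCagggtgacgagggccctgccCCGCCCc
Cd59a: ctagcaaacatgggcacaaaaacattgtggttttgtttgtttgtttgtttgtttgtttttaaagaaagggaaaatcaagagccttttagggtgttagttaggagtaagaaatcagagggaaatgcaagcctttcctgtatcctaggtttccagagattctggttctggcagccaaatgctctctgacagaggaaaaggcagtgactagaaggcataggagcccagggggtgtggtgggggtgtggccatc
The Vtn window holds TAATC on the minus strand and TATAAA on both strands, the latter overlapping each other. The Cd55 window holds GGGCGG at 2 places on the minus strand and CCACCC once on the plus strand, and the Cd59a window holds none of the 6. Among the 32851 windows of this length in the table, 19.8% hold TAATC, 12.4% TATAAA, 32.7% GGGCGG and 28.1% CCACCC, so matches of this kind are common. The Cr1l window also holds TAATC, at 2 places. These are matches of letters, not measured binding.

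The 2 tissues had different sets of regulators. In wild-type retina the secreted Vtn and Clu led by far, at 516 ± 39.2 and 276 ± 10.1 FPKM, followed by Cd59a at 35.2 ± 2.89, Cr1l at 5.39 ± 0.412 and Serping1 at 4.18 ± 0.778 FPKM (SD, n = 3). Cd46, Cd55, Cd59b and Cfi were each below 1 FPKM there, and among them Cd55, Cd59b and Cfi overlapped in their libraries. In wild-type RPE/choroid Clu led at 1008 ± 86.6 FPKM, followed by Serping1 at 143 ± 14.4, Cr1l at 51.4 ± 2.46, Cd59a at 34.6 ± 14.2, Vtn at 26.0 ± 18.8 and Cd55 at 13.6 ± 0.946 FPKM. Cd59a and Vtn overlapped in that order, and Cfi, Cd59b and Cd46, at 1.17, 0.991 and 0.701 FPKM, did not differ beyond their spread. Cd59a made up 83.3% to 85.3% of the summed FPKM of the 5 membrane regulators in wild-type retinas, but 22.9% to 39.4% in wild-type RPE/choroid.

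**Figure D1:**
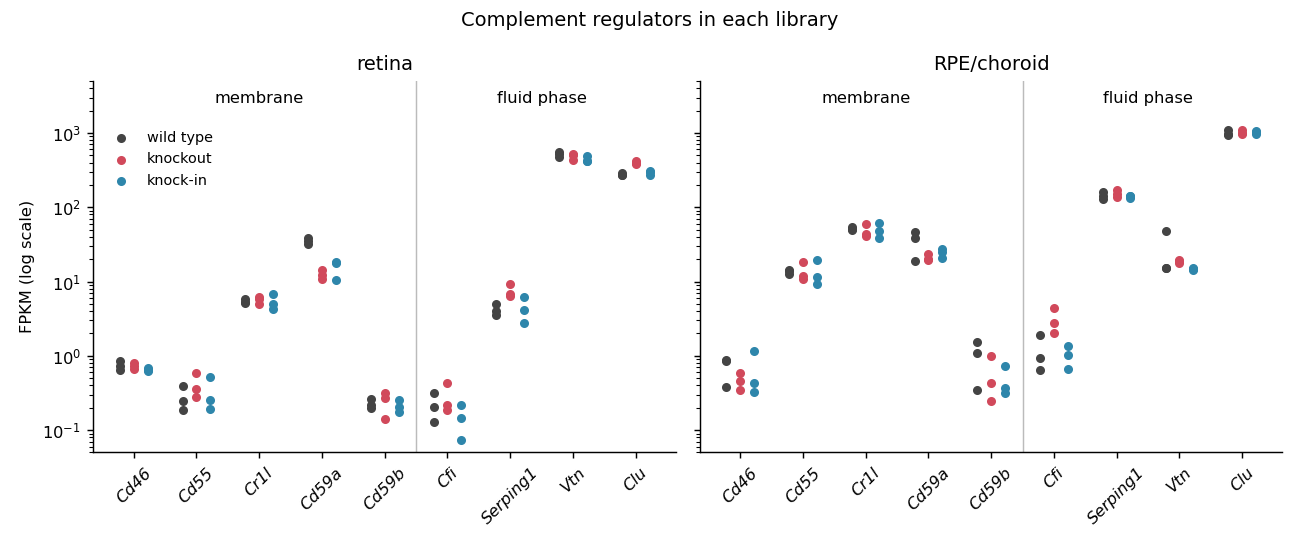
FPKM of the 9 complement regulators on a log axis in the retina (left) and RPE/choroid (right), with 1 point per library coloured by genotype and the membrane regulators left of the grey line. Vtn and Clu are the 2 highest members in every retinal library, and in RPE/choroid Clu and Serping1 are the 2 highest members.

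Of the 8 members that passed the filter on low counts in a fit of all 18 libraries (Cd59b did not), 6 differed between wild-type retina and wild-type RPE/choroid by edgeR's quasi-likelihood test at a Benjamini-Hochberg adjusted p under 0.05. With 85.9% of all 16222 tested genes called in this contrast, a call says little about a single member, and the sizes are the more informative part. The median log2 difference of the 8 members was -2.24, against -0.04 over all tested genes.

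Among the membrane regulators, Cd55 was at 0.243, 0.188 and 0.391 FPKM in the wild-type retinas and at 12.6, 13.9 and 14.4 in RPE/choroid. Retina thus held 2.21% of the RPE/choroid level (log2 -5.50, SE 0.203, adjusted p = 2.15e-13). Cr1l, at 5.23, 5.86 and 5.08 FPKM in retina against 49.7, 50.3 and 54.2 in RPE/choroid, was at 11.4% (log2 -3.13, SE 0.125, adjusted p = 5.69e-13). For both genes every retinal library lay below every RPE/choroid library. Cd59a showed no difference past the threshold: its log2 difference was 0.11 with a 95% interval from -0.45 to 0.68 (adjusted p = 0.690), and the libraries overlapped. Cd46 was scarce in both tissues, with 5 to 25 fragments per library, and its log2 difference of 0.36 (95% interval -0.27 to 0.99, adjusted p = 0.348) was not detectable at this depth. Cd46 overlaps the antisense transcript A330023F24Rik in the GENCODE annotation and it is not stated if strand was used in counting, so its fragments may include reads of that transcript.

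Among the secreted regulators, Vtn went the other way from the rest. Its wild-type retinal libraries were at 553, 521 and 475 FPKM and the RPE/choroid libraries at 15.4, 15.0 and 47.7, which is 17.7-fold higher in retina (log2 4.15, SE 0.389, adjusted p = 2.29e-07). The RPE/choroid library at 47.7 FPKM was the one with the high rod sum, and without it the log2 difference was 4.99 (adjusted p = 1.50e-17). Photoreceptors are a known site of Vtn expression. Over the 9 retinal libraries Vtn stood at 1.51% to 1.95% of the summed rod level, and in wild-type RPE/choroid library 2 at 1.69%. In the other RPE/choroid libraries Vtn was 3.42% to 11.1% of the rod sum. Whether rod RNA accounts for the Vtn level of wild-type RPE/choroid library 2 was not tested.

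**Figure D2:**
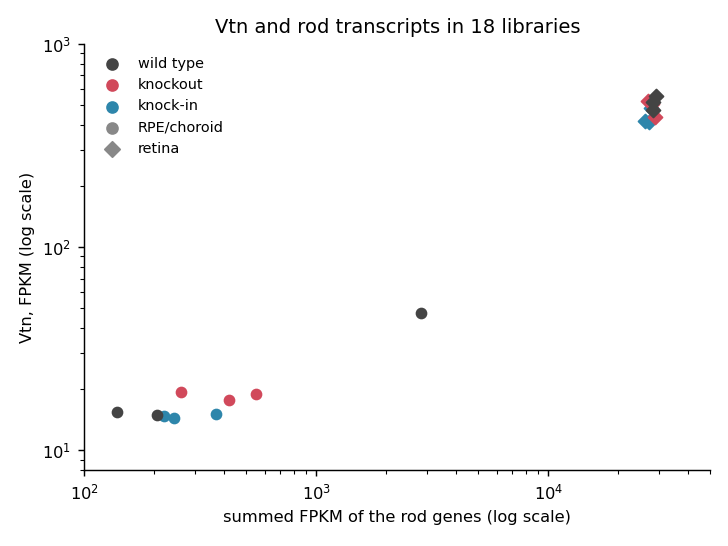
Vtn against the summed FPKM of 12 rod genes, both on log axes, with 1 point per library (circles RPE/choroid, diamonds retina, colours genotype). The wild-type RPE/choroid library with a rod sum of 2829 FPKM lies between the other RPE/choroid libraries, at 14.5 to 19.4 FPKM of Vtn, and the retinas.

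Serping1, at 3.50, 4.03 and 5.03 FPKM in retina and 158, 140 and 130 in RPE/choroid, was at 2.82% of the RPE/choroid level in retina (log2 -5.15, SE 0.255, adjusted p = 1.02e-10). Clu was at 271, 287 and 269 FPKM against 972, 1107 and 946, that is 24.5% (log2 -2.03, SE 0.089, adjusted p = 1.74e-12). Cfi was close to absent from retina, with 4 to 12 fragments per wild-type library, and was higher in RPE/choroid (log2 -2.46 for retina, SE 0.537, adjusted p = 4.48e-04). Its size rested on single libraries: the log2 difference was -1.83 without wild-type RPE/choroid library 1 and -2.97 without wild-type retinal library 0. No pair of libraries of these 3 genes overlapped between the tissues. In bulk tissue, a difference of this kind cannot be split into the number of expressing cells and the RNA per cell.

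**Figure D3:**
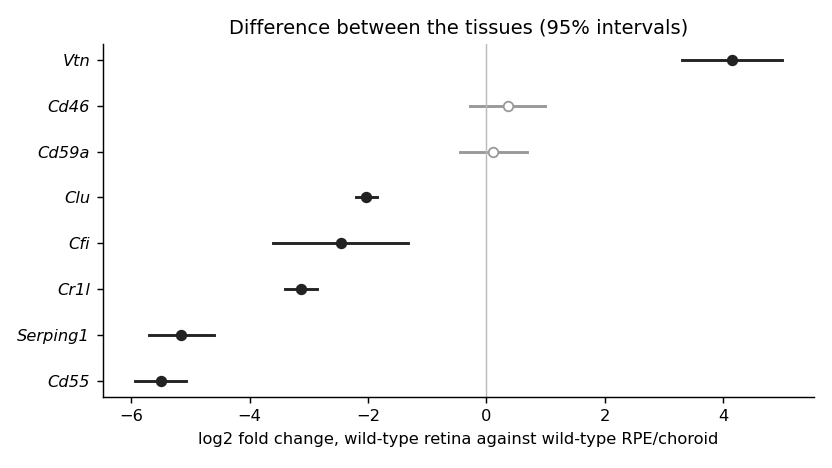
Log2 fold change of wild-type retina against wild-type RPE/choroid for the 8 tested members, with 95% intervals (filled points: adjusted p under 0.05). Vtn lies to the right of 0, Cd46 and Cd59a have intervals that include 0, and the other 5 lie to the left.

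The genotypes were then compared within each tissue, to ask which regulators change when Abca4 is missing or carries the 2 substitutions. In retina 7 of the 9 members passed the filter on low counts; Cfi and Cd59b, with 2 to 21 fragments per library, did not. In knockout against wild-type retina, 2 of the 7 were called, Cd59a lower and Clu higher, where 0.980% of all 14699 tested genes were called (71 higher, 73 lower). The other 5 did not pass. The median log2 change of the 7 was 0.04 and that of all genes -0.00. In knock-in against wild-type retina none of the 7 was called by edgeR, with 0.265% of all genes called. An unadjusted p under 0.05 was met by 2 of the 7, beside 1250 of all 14699 genes. DESeq2 called 1 of those 2, Cd59a. In knock-in against knockout retina 1 was called, Clu, with 1.26% of all genes called. The 3 comparisons of a tissue share their libraries in pairs and are not independent.

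**Figure D4:**
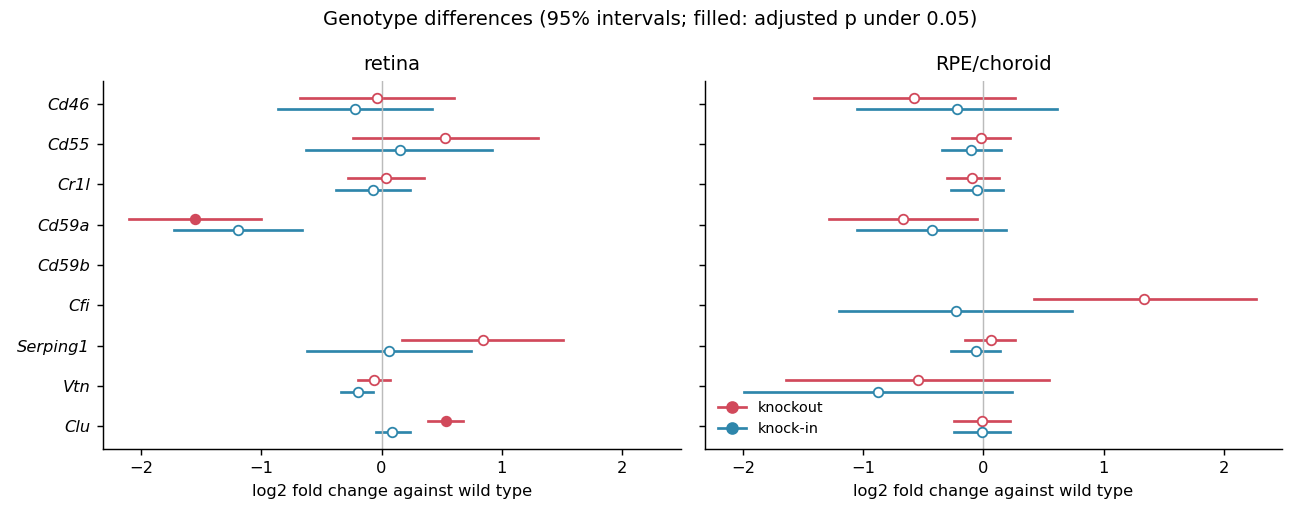
Log2 fold change of knockout and knock-in against wild type for each tested member in retina (left) and RPE/choroid (right), with 95% intervals; filled points have an adjusted p under 0.05. Cd59a and Clu in knockout retina are the filled points, and Cd59b is empty because it passed the low-count filter in neither tissue.

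Cd59a, the main membrane-bound inhibitor of the attack complex in mice, was the member that fell most. The wild-type retinas were at 32.5, 34.9 and 38.3 FPKM, the knockout retinas at 10.9, 12.4 and 14.3, and the knock-in retinas at 18.4, 17.9 and 10.6. Every retina of either mutant lay below every wild-type retina, while the mutants overlapped each other. In knockouts the level was 34.1% of wild type (log2 -1.55, SE 0.234, adjusted p = 0.0352). In knock-ins it was 43.8% (log2 -1.19, SE 0.227, interval -1.73 to -0.66), which did not pass edgeR's threshold over all genes (adjusted p = 0.145). Knock-in against knockout gave a log2 difference of 0.36 (SE 0.233, adjusted p = 0.640).

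The size of the Cd59a difference in knockouts was stable, and its call changed with the fit. Leaving out any 1 knockout or wild-type library kept the log2 change between -1.59 and -1.50, but edgeR's adjusted p rose to between 0.0815 and 0.169 in all 6 cases. The 3 knock-in retinas stayed in these 6 fits and shared the estimate of the spread. Over the other alternatives the adjusted p ran from 1.35e-07 (the compared libraries alone; 2.88e-07 by DESeq2) to 0.124 (a term for lens content, log2 -1.75). For the knock-ins the call turned on library 2, the retina at 10.6 FPKM. Without it the log2 change was -0.95 (SE 0.079) with an adjusted p of 6.62e-05. Cd59a was then also called higher in knock-in than in knockout (log2 0.61, SE 0.078, adjusted p = 0.00182). In the authors' deposited table Cd59a was lower than wild type in both mutants, with a q-value of 0.00293 each.

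With Cd59a down, the summed FPKM of the 5 membrane regulators was 41.9 ± 3.01 in wild types, 19.5 ± 2.43 in knockouts and 22.1 ± 3.11 in knock-ins (SD, n = 3). Cr1l, the next membrane regulator by level, was at 5.39 ± 0.412, 5.64 ± 0.664 and 5.31 ± 1.27 FPKM, with a log2 change of 0.04 in knockouts (95% interval -0.28 to 0.35). The deposited transcript tables list a pair of Cd59a transcripts. NM_007652 was at 34.3 ± 3.18 FPKM in wild types, 12.3 ± 1.61 in knockouts and 15.4 ± 4.56 in knock-ins, and NM_001111060 at 0.979 ± 0.317, 0.202 ± 0.201 and 0.276 ± 0.240, so both were lower in the mutants by mean. Only 5 of the 1811 distinct 100-base stretches of Cd59a transcripts in GENCODE occur in another gene, Cd59b. Cd59b itself was at 0.227, 0.243 and 0.212 FPKM in the 3 retinal groups, with 2 to 4 fragments per library.

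Cd59a lies on chromosome 2 at 103935958 to 103955508 (mm9, the build of the deposited tables), and genes near it were looked at after its values were seen. Of 18 other genes within 1 Mb that were tested in retina, 2 were called by edgeR in knockout against wild type, beside 0.980% of all tested genes. Lmo2, which encodes a haematopoietic transcription cofactor, was higher (log2 1.16, SE 0.228, adjusted p = 0.0354) and Ccdc73 was lower (log2 -0.86, SE 0.174, adjusted p = 0.0360). None of the 18 was called by edgeR in knock-in against wild-type or in knock-in against knockout retina. Lmo2 was at 3.03, 2.72 and 3.36 FPKM in wild types, 6.61, 7.89 and 5.73 in knockouts and 3.56, 5.03 and 7.01 in knock-ins. The authors' deposited table calls Lmo2 higher than wild type in both knockout (q = 0.00293) and knock-in retina (q = 0.0102). Strain origin of this region in each mouse was not tested.

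**Figure D5:**
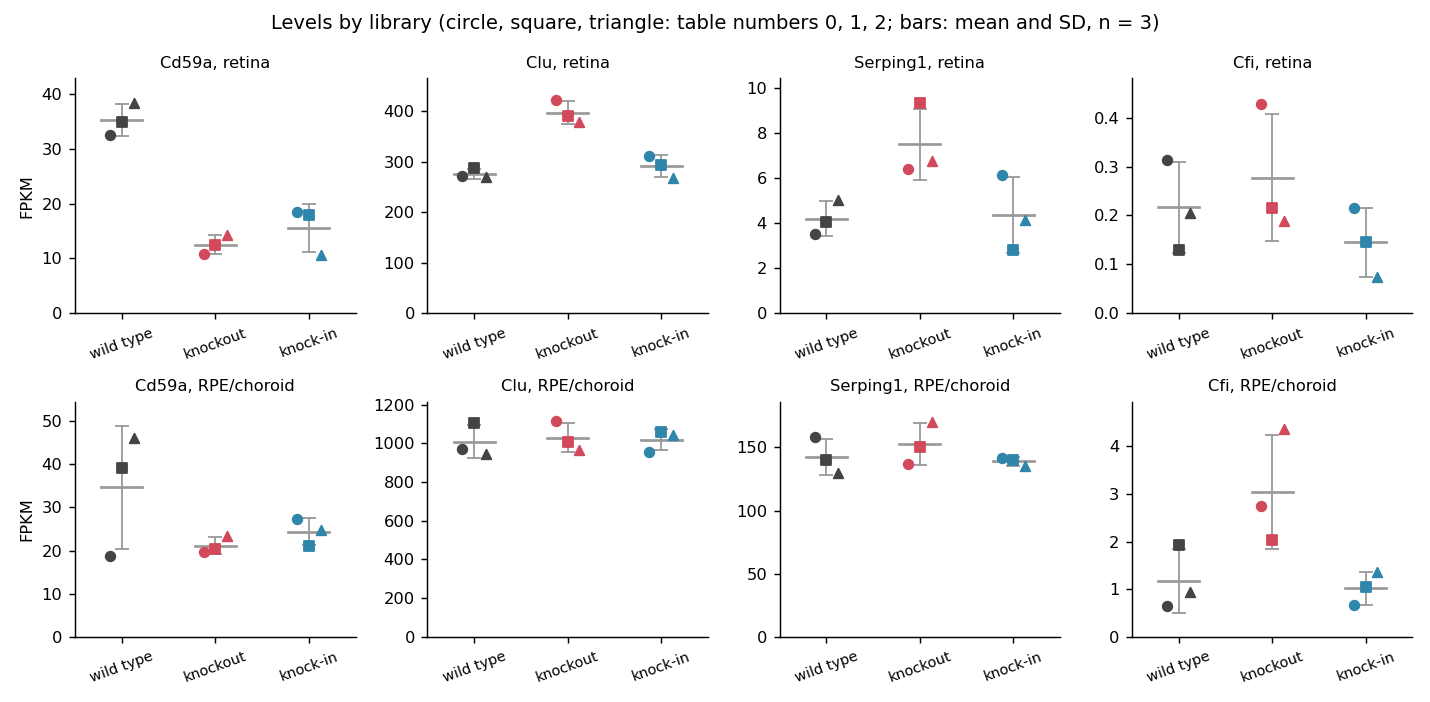
FPKM of Cd59a, Clu, Serping1 and Cfi by library in retina (top) and RPE/choroid (bottom); grey bars give the mean and SD of 3 libraries, and marker shapes the number of the library in the deposited tables. The mutant retinas lie below wild type for Cd59a, the knockout retinas above both other groups for Clu and Serping1, and the knockout RPE/choroid libraries above the others for Cfi.

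Clu (chromosome 14, 66587320 to 66600382, mm9), which encodes the secreted chaperone clusterin, rose in knockout retina alone among the retinal groups. Its libraries were at 271, 287 and 269 FPKM in wild types, 422, 389 and 378 in knockouts and 311, 294 and 268 in knock-ins. The knockout retinas overlapped neither other group. Clu was 1.45-fold of wild type in knockouts (log2 0.54, SE 0.068, 95% interval 0.39 to 0.68, adjusted p = 0.00142), and this call held in every alternative run, with log2 changes from 0.51 to 0.58. In knock-ins it was 1.06-fold (log2 0.09, interval -0.05 to 0.24, adjusted p = 0.760), and the direct comparison of knock-in with knockout gave a log2 difference of -0.45 (SE 0.068, adjusted p = 0.00391). That second call was lost with limma on log2 FPKM (adjusted p = 0.0794 at a pseudocount of 1 and 0.0763 at 0.1). The authors' deposited table also calls Clu higher in knockout than in wild type (q = 0.00293) and than in knock-in (q = 0.0351).

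Serping1 (chromosome 2, 84605517 to 84615586, mm9), the inhibitor of the first proteases of the classical pathway, was at 3.50, 4.03 and 5.03 FPKM in wild types, 6.41, 9.30 and 6.76 in knockouts and 6.13, 2.79 and 4.13 in knock-ins. The knockout retinas again overlapped neither other group. The log2 difference from wild type was 0.84 (SE 0.294, 95% interval 0.17 to 1.51), but it did not pass the test (adjusted p = 0.287). Only a fit of the compared libraries alone brought it under the threshold (adjusted p = 0.0492). With a term for lens content the log2 difference was 0.50 (adjusted p = 0.798), and with a term for sex 0.70 (adjusted p = 0.402). Knock-in against knockout gave -0.78 (SE 0.283, adjusted p = 0.306). In the authors' deposited table Serping1 is called higher in knockout than in wild type and than in knock-in, with a q-value of 0.00293 each.

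Levels of RPE markers differed between wild-type and mutant retinas, and sums of further marker lists are given here beside Clu and Serping1. The sum of 10 RPE markers was 94.6 to 109 FPKM in wild-type, 141 to 183 in knockout and 133 to 153 in knock-in retinas. Of the 10, 4 (Rpe65, Rgr, Lrat and Slc6a20a) were called higher in knockouts and none in knock-ins. The mean difference of knockout from wild type in this sum was 0.583% of the RPE marker level of wild-type RPE/choroid, whereas Clu rose by 121 FPKM beside a level of 1008 FPKM in wild-type RPE/choroid, and Serping1 was higher by 3.30 FPKM, or 2.31% of its level there. The sum of 7 pigment cell markers differed by 0.172% on the same scale and that of 6 fibroblast markers by 0.0273%. The sum of microglia and macrophage markers differed by 1.93% and that of Müller glia and astrocyte markers by 4.13%. For 8 endothelium markers it was -4.86%, that is lower in knockouts. Of the 6 tested pigment cell markers 1, Oca2, was called higher in knockouts, and of the 5 tested fibroblast markers none. The summed level of 10 markers of Müller glia and astrocytes was 2509 to 2657 FPKM in wild-type and 2622 to 3021 in knockout retinas, with none of the 10 called. The sum of 10 microglia and macrophage markers was 15.2 to 17.6 FPKM in wild-type and 15.9 to 22.9 in knockout retinas, again with none called. The sum of 12 lens genes ranged from 34.7 to 766 FPKM in wild-type, 509 to 14510 in knockout and 343 to 7236 in knock-in retinas. None of these lists had a gene at 0 in all libraries of a group. Of 2 tested erythroid genes 1, Alas2, was called lower in knockouts. The part of glia, of microglia or of RPE/choroid tissue left on the retinas in the differences of Clu and Serping1 was not tested.

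Vtn (chromosome 11, 78312622 to 78315827, mm9) was the most abundant member in every retina. It was at 553, 521 and 475 FPKM in wild types, 523, 507 and 437 in knockouts and 418, 483 and 415 in knock-ins, and the groups overlapped. The log2 difference was -0.06 in knockouts (95% interval -0.20 to 0.07, adjusted p = 0.733) and -0.20 in knock-ins (interval -0.34 to -0.07, adjusted p = 0.304). Rod genes, summed, ranged from 28268 to 29064 FPKM in wild-type, 26850 to 28920 in knockout and 26131 to 27706 in knock-in retinas. None of the 12 rod genes was called in either mutant against wild type. Cd55 and Cd46, scarce in retina, had wide intervals: -0.24 to 1.30 and -0.68 to 0.60 for the log2 change in knockouts. The data therefore do not limit their change in retina closely.

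In RPE/choroid no member was called in any genotype comparison by edgeR, of 8 tested, where knockout against wild type called 0.472% of all 15454 tested genes, knock-in against wild type 0.0647% and knock-in against knockout 0.453%. An unadjusted p under 0.05 was met by 2 members in knockout against wild type (Cfi and Cd59a), by 0 in knock-in against wild type and by 1 in knock-in against knockout (Cfi). Over all 15454 tested genes it was met by 2401, 854 and 1890 in that order. DESeq2 called Cfi in the first and the third of these comparisons and no member in the second. The median log2 change of the 8 was -0.06, -0.16 and -0.04 in that order, against -0.01, -0.00 and 0.00 over all genes.

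Cfi (chromosome 3, 129539657 to 129578246, mm9), the factor I protease, was at 0.652, 1.92 and 0.943 FPKM in wild types, 2.74, 2.04 and 4.37 in knockouts and 0.674, 1.04 and 1.36 in knock-ins. The 3 knockout libraries were the highest of the 9, with 90 to 222 fragments each against 28 to 129 elsewhere. The log2 difference of knockout from wild type was 1.34 (SE 0.408, 95% interval 0.42 to 2.27), with an adjusted p of 0.174 by edgeR and 0.0397 by DESeq2. Leaving out single libraries moved it from 1.06 (without knockout library 2, the highest of its group) to 1.95 (without wild-type library 1, the highest of its group), with edgeR's adjusted p between 0.109 and 0.452. Knock-in against knockout gave -1.57 (SE 0.419, interval -2.52 to -0.62, adjusted p = 0.194; DESeq2 0.0183), and knock-in against wild type -0.23 (interval -1.20 to 0.74). The authors' deposited table calls Cfi higher in knockout than in both other genotypes, with a q-value of 0.00347 each.

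Cd59a in RPE/choroid was at 18.7, 39.0 and 46.1 FPKM in wild types, 19.7, 20.3 and 23.4 in knockouts and 27.3, 21.0 and 24.8 in knock-ins. A pair of wild-type libraries lay above all 6 mutant libraries and wild-type library 0 below all 6. The log2 difference was -0.67 in knockouts (SE 0.267, 95% interval -1.28 to -0.05, adjusted p = 0.291) and -0.43 in knock-ins (interval -1.05 to 0.19, adjusted p = 0.875). Without wild-type library 0 these were -0.93 (adjusted p = 0.0555) and -0.69 (adjusted p = 0.408). Among the 18 other genes within 1 Mb of Cd59a, none was called by edgeR in any RPE/choroid genotype comparison. Cat (catalase), 1 of them at 611 kb, was at 74.6 FPKM in wild-type library 0 against 116 and 110 in the other wild types. The 6 mutant libraries were at 76.2 to 90.0. In the nearer Lmo2 and Fbxo3, wild-type library 0, at 20.5 and 55.1 FPKM, lay within the range of the mutant libraries. The authors' deposited table calls Cd59a lower in knockout (q = 0.00347) and in knock-in (q = 0.0137) RPE/choroid than in wild type.

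Vtn in RPE/choroid was at 15.4, 15.0 and 47.7 FPKM in wild types, 19.4, 17.8 and 18.9 in knockouts and 15.1, 14.7 and 14.5 in knock-ins. The authors' deposited table calls it lower in knock-in than in wild type (q = 0.00347). That difference rested on wild-type library 2, the library with the rod sum of 2829 FPKM: the log2 difference of knock-in from wild type was -0.88 with it (95% interval -1.99 to 0.24, adjusted p = 0.875) and -0.06 without it (adjusted p = 0.910). For knockout against wild type the sign turned, from -0.54 with it to 0.28 without it (adjusted p = 0.0839). Knockout libraries lay above knock-in libraries without overlap, at a log2 difference of -0.34 for knock-in that did not pass (adjusted p = 0.830; 0.0779 when the compared libraries alone were fitted).

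None of the other members had an unadjusted p under 0.05 in an RPE/choroid genotype comparison. Clu, the most abundant, was at 1008 ± 86.6, 1029 ± 75.2 and 1019 ± 54.6 FPKM in wild-type, knockout and knock-in, and its log2 difference was -0.01 in either mutant, with 95% intervals from -0.24 to 0.22. Serping1 was at 143 ± 14.4, 152 ± 16.7 and 139 ± 3.73 FPKM, and Cr1l at 51.4 ± 2.46, 48.5 ± 9.83 and 49.4 ± 11.8. Cd55 was at 12.6, 13.9 and 14.4 FPKM in the wild-type, 10.9, 11.7 and 18.4 in the knockout and 9.24, 11.4 and 19.3 in knock-in libraries. The highest Cd55 value of each group came from the library numbered 2, yet in CPM the knock-in libraries were at 31.2, 31.2 and 33.9 and the knockout libraries at 36.8, 31.2 and 34.4. The log2 difference of Cd55 from wild type was -0.02 in knockouts (interval -0.26 to 0.22) and -0.10 in knock-ins (interval -0.34 to 0.15). Cd46 was at 0.375, 0.849 and 0.879 FPKM in wild types, 0.344, 0.459 and 0.587 in knockouts and 0.428, 0.322 and 1.18 in knock-ins, with 5 to 25 fragments each.

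Whether a genotype acted differently on the 2 tissues was tested as an interaction over all 18 libraries. No member of the 8 tested was called by edgeR for the knockout, where 0.136% of 16222 genes were called, or for the knock-in, where 0.0555% were. For Clu the knockout difference in RPE/choroid minus that in retina was -0.53 on the log2 scale (SE 0.121, 95% interval -0.79 to -0.28), with an adjusted p of 0.0985 by edgeR and 0.00495 by DESeq2; without wild-type RPE/choroid library 2 edgeR gave 0.0433. For Cd59a the knockout interaction was 0.90 (SE 0.381, adjusted p = 0.378) and the knock-in interaction 0.75 (SE 0.378, adjusted p = 0.815), and for Serping1 the knockout interaction was -0.77 (SE 0.317, adjusted p = 0.358). An unadjusted p under 0.05 was met by 3 members for the knockout and 0 for the knock-in, beside 1988 and 970 of all genes.

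The rest of the pathway was followed through 5 lists. The regulators outside the 9 (8 genes), the classical and lectin pathway (17), the alternative pathway with C3 (4), the terminal pathway (6) and the complement receptors (8) held no gene called in any retinal genotype comparison. In RPE/choroid 1 gene was called, C4b, which encodes the C4 that Cfi and its cofactors cleave. C4b was at 18.6 ± 0.917 FPKM in wild types, 33.1 ± 5.45 in knockouts and 19.0 ± 0.803 in knock-ins (SD, n = 3). The log2 difference of knockout from wild type was 0.80 (SE 0.131, adjusted p = 0.0443) and that of knock-in from knockout -0.82 (SE 0.131, adjusted p = 0.0450). Over the alternatives the first of these adjusted p ran from 1.19e-06 (DESeq2) to 0.131 (without wild-type library 0). C4b has the near-identical copy C4a, so its value is uncertain where reads fit both. In retina C4b was at 2.31 ± 0.0296, 4.28 ± 1.04 and 1.95 ± 0.889 FPKM, and the authors' deposited table calls it higher in knockout than in both other genotypes in both tissues (q = 0.00293 in retina and 0.00347 in RPE/choroid).

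Between the wild-type tissues the activating side was lower in retina along with most regulators. All 4 tested genes of the alternative pathway list, 10 of 12 of the classical and lectin list and 5 of 7 receptors were called lower in retina. So were the 2 tested genes of the terminal pathway list. Of all 16222 tested genes, 44.0% were called lower. The median log2 differences of these 4 lists were -4.21, -3.72, -4.34 and -2.28, beside -2.24 for the 8 members and -0.04 for all genes. C1qa, a subunit of the initiating C1q, was at 4.15 FPKM in retina and 49.6 in RPE/choroid, and Cfb, the protease of the alternative convertase, at 0.220 and 7.65. Of the 8 other regulators 4 were tested. Csmd1, Csmd3 and Susd4, membrane proteins with complement control domains, were called higher in retina (Susd4 13.7 against 1.68 FPKM). Thbd, which encodes thrombomodulin, was lower (0.677 against 32.8 FPKM). Over all 16222 tested genes 6798 were called higher in retina, so 3 of 4 says little about this list.

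The genes whose retinal levels were most like those of Cd59a, by Pearson's r of log2(FPKM + 1) over the 9 retinal libraries among 11805 genes with a mean of at least 1 FPKM, were Tmem69 (r = 0.958), Ccdc115 (0.941), Glb1l2 (0.928), Snhg6 (0.906) and Hunk (0.882). Like Cd59a, Ccdc115 was high in wild type, at 33.8, 35.4 and 31.4 FPKM, and at 18.3 to 23.1 in the mutants. For Clu they were Cyp1b1 (0.958), Fuca1 (0.956), Ppara (0.954), Nudt6 (0.939) and Fgf2 (0.937). Fgf2, which encodes a fibroblast growth factor, was at 14.2, 9.89 and 8.42 FPKM in knockout retinas and at 2.04 to 3.22 in the other 6. For Cfi in RPE/choroid, among 12705 genes, they were Btbd9 (0.968), Mccc1 (0.955), Vit (0.947), Fbln1 (0.941) and Cyp4f15 (0.938). These 9 libraries fall into 3 genotype groups, and each r includes the differences between those groups.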

How the data were processed

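The deposited gene tables give, per library, fragments per gene before scaling and FPKM. Per the submitters' processing notes, TopHat and Bowtie2 mapped reads to mm9 and Cufflinks gave the levels; the sources used here give no tool version or annotation. The fragments are expected counts per the file headers: 98.5% of retinal and 98.4% of RPE/choroid values were whole, and the rest were rounded. FPKM are per the file headers and were made by the authors. The p-values and q-values in the authors' deposited comparison tables were copied, with directions taken from the mean of the deposited library FPKM of each genotype. Gene estimates marked as failed by the authors numbered 10 in retina and 3 in RPE/choroid.

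The test was edgeR's robust quasi-likelihood fit (edgeR 4.0.16, R 4.3.3) after filterByExpr and TMM scaling. The 9 libraries of a tissue were fitted together, and all 18 for contrasts between tissues. Benjamini-Hochberg adjustment ran over all genes tested, with calls under 0.05. Biological coefficients of variation were 0.114 (retina) and 0.154 (RPE/choroid). Alternatives were DESeq2 1.42.0, limma 3.58.1 on log2(FPKM + 1) and log2(FPKM + 0.1), RLE scaling, other filters (none, or a mean of at least 1 FPKM), the compared libraries alone, terms for sex, lens or rod content, the table number as a block, and leaving out each library. The procedure was tested on simulated data: of genes changed 2-fold, 83.6% were recovered in knockout against wild-type retina (14629 genes) and 81.8% in RPE/choroid (15382 genes). Of genes changed 1.5-fold, 58.2% and 65.7% were recovered. False calls numbered 14 of 172 calls in retina and 13 of 172 in RPE/choroid. The simulated libraries did not differ in lens content, rod content or sex as the real ones did. These rates therefore need not hold for the members.

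The members and gene lists were chosen with earlier results of these data known. Named genes were all members, with values by library for those called or with the 3 smallest p-values of a genotype comparison, pathway genes called, and for likeness the 5 genes of highest r, leaving out unnamed gene models and sex-linked genes. Shared 100-base stretches were counted in GENCODE transcripts of a later build, from which no coordinates were taken.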

Additional observations from a re-analysis of the deposited data

How the results depend on the processing

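Of the members called, Clu in knockout retina and the 6 differences between wild-type tissues kept their direction and call in every alternative run. In knockout against wild-type retina the count of called members fell from 2 to 1 in several alternatives, the gene lost being Cd59a. These were no low-count filter, the replicate block, a term for sex, a term for lens content, and leaving out any 1 knockout or wild-type library (range 1 to 1). The count rose to 3 with the compared libraries alone, the gene added being Serping1. In knock-in against wild-type retina it rose from 0 to 1 with DESeq2, and over the libraries left out it ranged from 0 to 1. In knock-in against knockout retina it fell from 1 (Clu) to 0 with limma on log2 FPKM at a pseudocount of either 1 or 0.1, and over the libraries left out it ranged from 1 to 2. In RPE/choroid, knockout against wild type gave 1 in place of 0 with DESeq2, and knock-in against knockout gave 1 with DESeq2 and with the compared libraries alone. The knockout interaction gave 1 in place of 0 with DESeq2 and ranged from 0 to 1 over the libraries left out. The cause of these moves was not tested. Counts over all genes moved more: in knockout against wild type from 27 to 327 in retina (144 as reported) and from 17 to 538 in RPE/choroid (73). No member changed direction among those called in any alternative.

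Library numbers of the tables were not taken to pair samples, since no label says what the number marks and not every pair correlated: deviations of same-numbered libraries correlated at -0.47 to 0.21 in retina and -0.12 to 0.24 in RPE/choroid. With the number as a replicate block, Cd59a in knockout retina had a log2 change of -1.56 and an adjusted p of 0.105. Depth limits Cd46, Cd59b and retinal Cfi and Cd55 most, with fewer than 30 fragments per library.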
